A study of Mus musculus with 8 samples.

Results

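The ErbB receptors and their EGF-like ligands were followed in mouse interfollicular epidermis (the epidermis outside the hair follicles) with and without the histone methyltransferase G9a, encoded by Ehmt2. Of the 10 genes considered, 3 encode receptors (Egfr, Erbb2 and Erbb3) and the others encode ligands (Tgfa, Hbegf, Areg, Ereg, Btc, Epgn and Egf). All probe sets that the platform annotation assigns to one of these genes were taken, each on its own, which gave 19 of the 45037 probe sets tested: 9 for the receptors and 10 for 6 of the ligands. These stand for 9 of the 17097 genes with a probe set of their own. No probe set is named for Areg in the annotation used, so amphiregulin was not analysed here. RNA came from 4 samples labelled G9a cKO (a conditional knockout) and 4 labelled G9a WT, with 1 array for each. Both groups had received the carcinogen DMBA (0.25 mg/ml) and the tumour promoter TPA (0.02 mg/ml), 200 µl of each on shaved back skin in weekly doses over 6 weeks, starting at 8 weeks of age. All are given as 15 weeks old, and the tissue is described as pre-neoplastic. The labels name no Cre driver and do not say which cells lost G9a, and there was no untreated group, so a response of these genes to DMBA or TPA itself cannot be read from the arrays.

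The ErbB family are receptor tyrosine kinases. EGFR binds EGF, TGF-alpha, amphiregulin and epigen, and heparin-binding EGF, betacellulin and epiregulin bind both EGFR and ErbB4. ErbB2 has no known soluble ligand and acts as a partner, and ErbB3, whose own kinase is weak, is a receptor for neuregulins. The ligands are made as membrane-bound precursors that proteases such as ADAM17 cut free, so their activity is set after transcription as well as by it. In epidermis the EGFR is known to drive basal keratinocyte proliferation and to delay differentiation, and mouse mutants of Tgfa and Egfr have wavy hair.

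Values are log2 expression per probe set, normalised by the authors with RMA. A difference of 1.00 on this scale would be 2-fold. Brightness depends on the probe as well as on the transcript, so that levels are compared between arrays for 1 probe set and never between genes. Across all probe sets the array medians lay between 5.72 and 5.80. The defining keratinocyte markers were bright in both groups, with Krt14 at 12.8 to 12.9, Krt5 at 12.5 to 12.7 and Trp63 at 11.3 to 11.6 over the 8 arrays. Ehmt2 fell by 2.88 in cKO at probe set 1460692_PM_at (SE 0.19, limma adjusted p = 0.000244), and the 4 cKO arrays, at 6.30 to 7.07, lay below the 4 WT arrays, at 9.25 to 9.77. Its other probe set, 1426888_PM_at, differed by 0.01 (SE 0.06, adjusted p = 0.996). The deleted stretch is not named in the labels, and a probe set outside that stretch checks nothing. On the first principal component, with 36.9% of the variance, WT 4 (-23.5) lay with cKO 3 (-18.0) and cKO 4 (-19.2), while cKO 2 (10.7) lay with WT 1, WT 2 and WT 3 (11.4 to 20.6) and cKO 1 lay near 0 (0.54). On the second component, with 23.02% of the variance, the groups lay apart, with cKO at 7.349 to 19.955 and WT at -21.235 to -2.58. There cKO 2 (19.955) and WT 4 (-21.235) were the arrays farthest from the other group. WT 4 and cKO 2 thus sit on the other group's side of the first component but not of the second. Because of the first, the plot of differences shows the members with and without both, and the larger shifts are given in the text. These arrays were picked for lying with the other group on the first component, so leaving them out tends to widen group differences by its construction. Without them 657 probe sets passed (1.46%) in place of 210, with 0 of 19 receptor and ligand probe sets among them, and the values from those 6 arrays are a description, not added support.

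None of the 19 receptor and ligand probe sets passed the test between cKO and WT, in either direction. The test was limma over all probe sets with Benjamini-Hochberg adjustment, and a probe set passed with an adjusted p under 0.05. Over the whole array 210 of 45037 probe sets passed, which is 0.466%, with 177 higher (0.393%) and 33 lower (0.0733%) in cKO. A count of 0 of 19 lies near these shares. At an unadjusted p under 0.05 there was 1 member, Epgn, against 7.98% of all probe sets. In none of the 19 did the 4 cKO arrays lie apart from the 4 WT arrays, where 4.89% of all probe sets showed such separation. Differences (cKO minus WT) ran from -0.19 for Tgfa 1421942_PM_s_at to 0.18 for Epgn. Their median was 0.02, and their median size without regard to sign was 0.04, against 0.01 and 0.05 over all probe sets. The smallest difference that passed anywhere on the array was 0.23 in size.

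**Figure D1:**
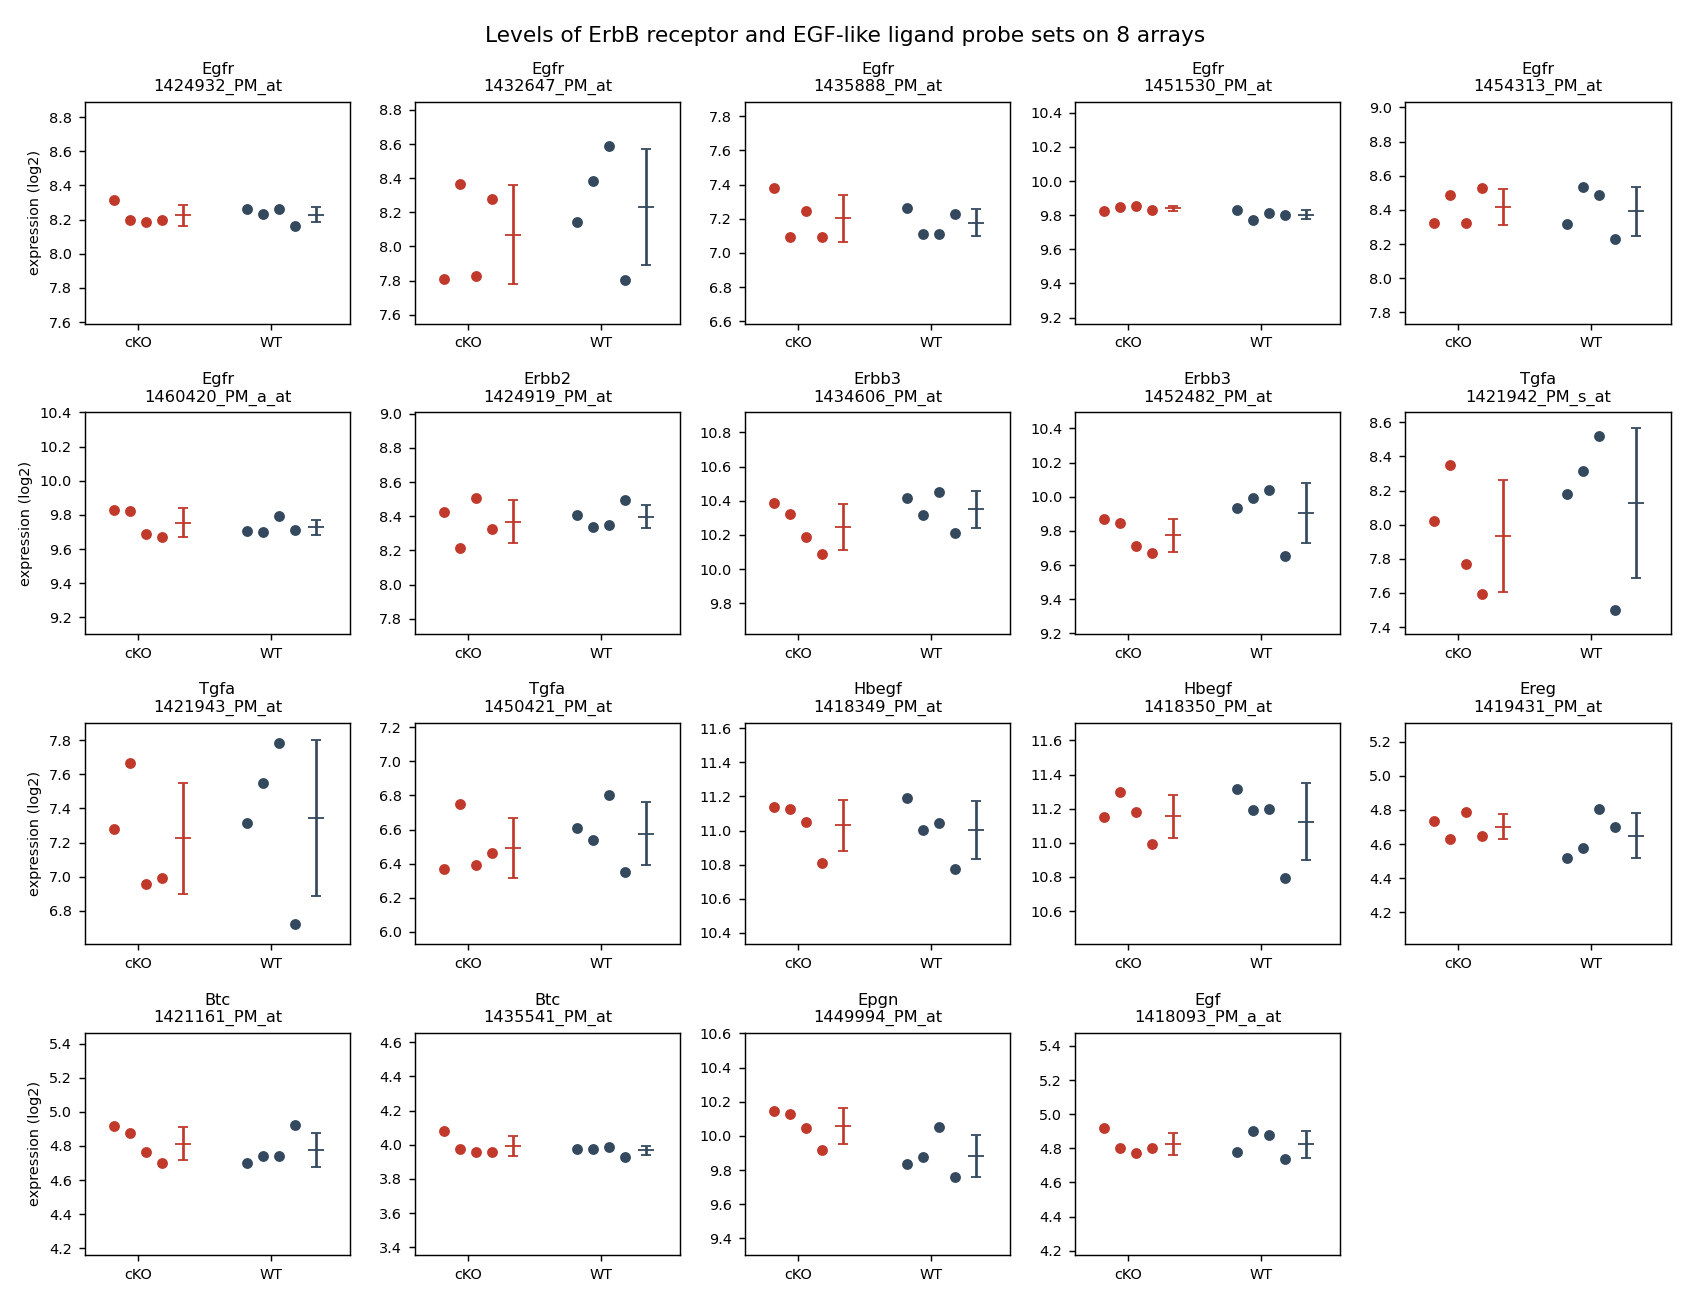
Levels of the 19 receptor and ligand probe sets. Each panel is 1 probe set, each point 1 array (log2 expression), in the order of replicate 1 to 4, and the bars are the mean ± SD of the 4 arrays of a group; every panel spans the same height, so spreads can be compared. The cKO and WT points overlap in every panel, and those of Tgfa 1421942_PM_s_at and 1421943_PM_at spread the most.

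EGFR, the receptor that all the ligands measured here can engage, was bright and nearly level at the probe set with its highest mean, 1451530_PM_at. This probe set read 9.83, 9.85, 9.86 and 9.83 in cKO 1 to 4 and 9.83, 9.77, 9.81 and 9.80 in WT 1 to 4. All 8 arrays lay within 0.083 of each other, and the groups overlapped narrowly. The difference was 0.04 (SE 0.04, 95% interval -0.05 to 0.12, limma adjusted p = 0.924), so that the interval ran from 0.968-fold to 1.09-fold. Probe set 1424932_PM_at, which was designed from the same sequence, differed by -0.01 (-0.11 to 0.10), and 1460420_PM_a_at by 0.03 (-0.09 to 0.14). Probe set 1435888_PM_at differed by 0.03 as well (-0.14 to 0.19).

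The remaining pair of Egfr probe sets, again with 1 shared design sequence, varied more between arrays at 1 of its members. At 1432647_PM_at the cKO arrays read 7.81, 8.37, 7.83 and 8.28 and the WT arrays 8.14, 8.38, 8.59 and 7.80. High and low arrays occurred in both groups, and the 8-array range was 0.79, against 0.083 at 1451530_PM_at. The difference was -0.16 (SE 0.18, 95% interval -0.58 to 0.26, limma adjusted p = 0.947). It was -0.04 without WT 3 and -0.30 without WT 4, the ends of the range with 1 array left out, and -0.40 without cKO 2 and WT 4 (adjusted p = 0.250). Its partner 1454313_PM_at differed by 0.02 (-0.16 to 0.20). The 6 probe sets did not order the arrays alike: cKO 1 was the highest array at 3 of them and next to lowest at 1432647_PM_at.

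Erbb2, the partner receptor without a known soluble ligand, had 1 probe set. It read 8.42, 8.21, 8.51 and 8.33 in cKO 1 to 4 and 8.41, 8.34, 8.35 and 8.49 in WT 1 to 4. The highest and the lowest array were both cKO, and the WT arrays lay between them. The difference was -0.03 (SE 0.07, 95% interval -0.19 to 0.12, limma adjusted p = 0.983), and it turned to 0.05 without cKO 2 and WT 4.

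Erbb3, the receptor with a weak kinase, stood slightly lower in cKO at both probe sets without passing. At 1452482_PM_at the cKO arrays read 9.87, 9.84, 9.71 and 9.67 and the WT arrays 9.93, 9.99, 10.04 and 9.65. Without WT 4, the lowest of the 8, the other 3 WT arrays lay above all cKO arrays. The difference was -0.13 (SE 0.09, 95% interval -0.33 to 0.07, limma adjusted p = 0.835). At 1434606_PM_at it was -0.10 (SE 0.08, -0.28 to 0.07, limma adjusted p = 0.869). There WT 2 (10.32) lay below cKO 1 (10.39), so the groups overlapped without WT 4 as well. With 1 array left out the differences ran from -0.21 to -0.09 at 1452482_PM_at and from -0.15 to -0.05 at 1434606_PM_at. Without cKO 2 and WT 4 they were -0.24 (adjusted p = 0.146) and -0.17 (adjusted p = 0.379).

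Tgfa encodes TGF-alpha, a growth factor that keratinocytes make and respond to. At 1421942_PM_s_at and 1421943_PM_at it varied more between arrays than any other member. At 1450421_PM_at its SD over the 8 arrays was 0.17, below the 0.30 of Egfr 1432647_PM_at. Probe set 1421942_PM_s_at read 8.02, 8.35, 7.77 and 7.59 in cKO 1 to 4. In WT 1 to 4 it read 8.18, 8.31, 8.52 and 7.50. The highest and the lowest array were both WT, and the 3 lowest, WT 4, cKO 4 and cKO 3, were the 3 at the low end of the first principal component. Its SD over the 8 arrays, 0.37, was above that of 98.9% of all probe sets. The difference between groups was -0.19 (SE 0.23, 95% interval -0.70 to 0.32, limma adjusted p = 0.948), smaller than the SD within cKO (0.33) or WT (0.44). The interval leaves room for values from 0.615-fold to 1.24-fold, the least precise of the family together with 1421943_PM_at.

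The other Tgfa probe sets, all designed from 1 sequence with the first, gave a like picture. Probe set 1421943_PM_at read 7.28, 7.66, 6.96 and 6.99 in cKO 1 to 4 and 7.32, 7.55, 7.78 and 6.72 in WT 1 to 4. WT 3 was highest, cKO 2 next and WT 4 lowest at all 3 probe sets. Its difference was -0.12 (-0.64 to 0.40), and that of 1450421_PM_at, which ran from 6.35 to 6.80 over the arrays, was -0.08 (-0.33 to 0.17). The size of all 3 differences hung on single arrays. Without WT 3 they were -0.063, 0.028 and -0.0053, and without WT 4 they were -0.40, -0.33 and -0.15. Without cKO 2 and WT 4, arrays whose removal by its construction favours a difference, they were -0.54 (SE 0.12, limma adjusted p = 0.0849), -0.47 (SE 0.13, adjusted p = 0.135) and -0.24 (SE 0.08, adjusted p = 0.182), larger by over 1.5 times and still short of the threshold. In bulk RNA, fewer cells that make a transcript and less of it in each cell cannot be told apart.

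**Figure D2:**
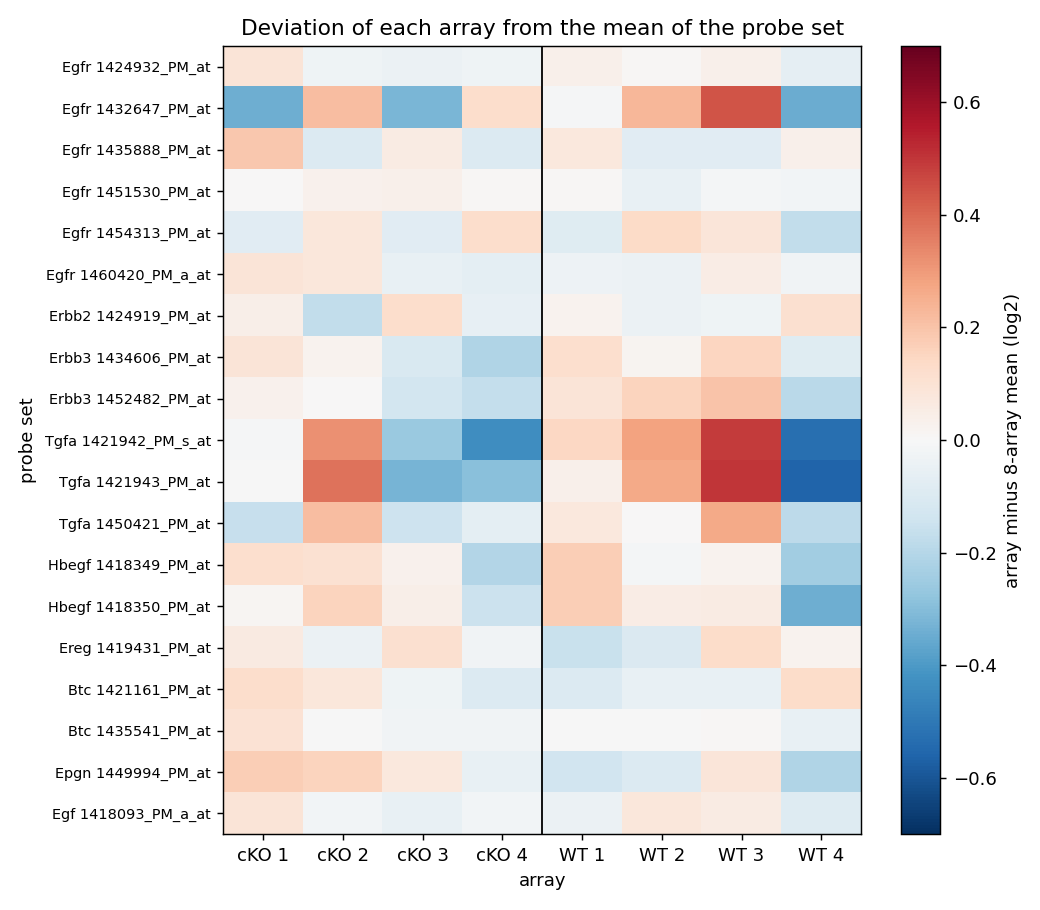
Deviation of each array from the 8-array mean of its probe set (log2, colour), with the 4 cKO arrays left of the line and the 4 WT arrays right of it. WT 4 is blue in most rows, being the lowest array at 12 of 19 probe sets, and the Tgfa rows are red in cKO 2 and WT 3 and blue in cKO 3, cKO 4 and WT 4.

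Hbegf, the heparin-binding ligand and receptor for diphtheria toxin in human cells, was bright in every array. At 1418350_PM_at the cKO arrays read 11.15, 11.30, 11.18 and 10.99 and the WT arrays 11.31, 11.19, 11.20 and 10.80. WT 4 was again the lowest array and WT 1 the highest, so that the WT values enclosed the cKO values. The difference was 0.03 (SE 0.11, 95% interval -0.22 to 0.28, limma adjusted p = 0.992) and at 1418349_PM_at, designed from the same sequence, 0.03 (SE 0.10, -0.20 to 0.25, adjusted p = 0.992). Without cKO 2 and WT 4 the signs turned, to -0.13 (adjusted p = 0.454) and -0.08 (adjusted p = 0.766).

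Epgn, which encodes epigen, a low-affinity EGFR ligand of epithelia, came nearest to a difference between the genotypes in the limma test. It read 10.14, 10.13, 10.05 and 9.92 in cKO 1 to 4, and 9.84, 9.88, 10.05 and 9.76 in WT 1 to 4. All cKO arrays lay above WT 1, WT 2 and WT 4, while WT 3 lay level with cKO 3 and above cKO 4. The mean was 10.06 ± 0.10 in cKO and 9.88 ± 0.12 in WT (SD, n = 4 each), a difference of 0.18 (SE 0.07, 95% interval 0.01 to 0.34, 1.13-fold). The limma p was 0.0419 before and 0.591 after adjustment over all probe sets. The two-sided exact permutation test over 70 arrangements gave p = 0.0857. By that exact test Egfr 1451530_PM_at had a smaller p, 0.0571, with a difference of 0.04. The sign of the Epgn difference held when any 1 array was left out, with values of 0.14 to 0.23 (limma adjusted p of 0.431 or more). Without cKO 2 and WT 4 the Epgn difference was 0.11 (limma adjusted p = 0.588).

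Ereg, Btc and Egf, which encode epiregulin, betacellulin and EGF, were dim. All 4 of their probe sets lay below the median of the array on each of the 8 arrays, and with no background measure in the table it is not known whether they hold signal. Ereg read 4.74, 4.63, 4.79 and 4.65 in cKO 1 to 4 and 4.52, 4.58, 4.81 and 4.70 in WT 1 to 4. The WT arrays spanned more than the cKO arrays and enclosed them, and the difference was 0.05 (SE 0.07, 95% interval -0.11 to 0.21). Btc ran from 4.70 to 4.92 at 1421161_PM_at and from 3.93 to 4.08 at 1435541_PM_at, with differences of 0.04 (-0.11 to 0.19) and 0.02 (-0.07 to 0.12). Egf ran from 4.73 to 4.92 and differed by -0.00037 (-0.12 to 0.12). Limma adjusted p for these 4 probe sets ran from 0.960 to 0.999.

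**Figure D3:**
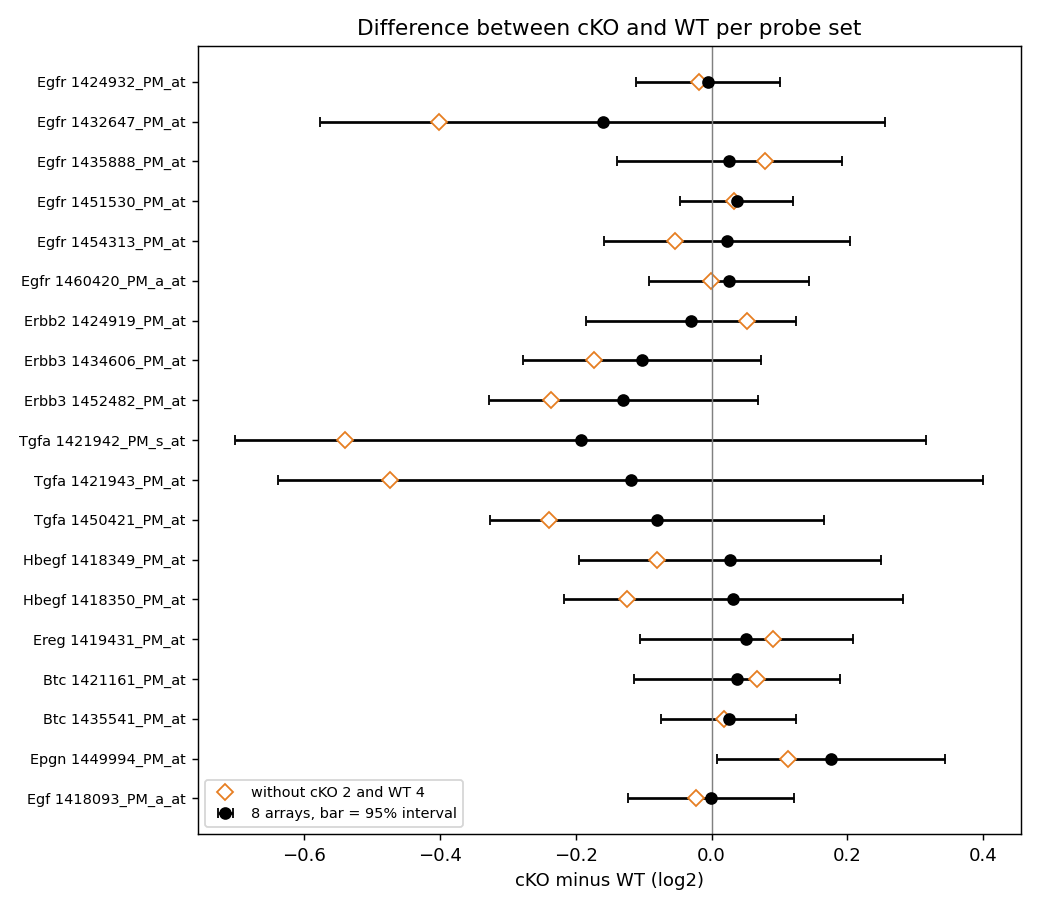
Difference between cKO and WT (log2) per probe set. Black points are estimates from all 8 arrays with their 95% intervals from limma, not adjusted for the number of probe sets, and open diamonds are the values without cKO 2 and WT 4. Epgn, at 0.18, is the 1 interval that stays clear of 0, and the Tgfa and Egfr 1432647_PM_at diamonds lie furthest from their points.

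The array WT 4 stood out among the members. It was the lowest of the 8 arrays at 12 of 19 probe sets (63.2%), whereas it was lowest at 17.0% of all probe sets and at 20.1% of the 22538 whose mean reached the average array median. These 12 included all 3 of Tgfa, both of Hbegf, 1 of 2 of Erbb3, 3 of 6 of Egfr and the probe set of Epgn. Probe sets of 1 gene share their transcript, so the 12 are not independent. WT 3 was the highest array at 7 of 19, against 10.5% of all probe sets. In the same array, WT 4, keratinocyte markers were not low: their mean was 11.8, against 11.7 to 11.8 in the other 7 arrays. Langerhans and dendritic cell markers averaged 6.31 in WT 4, against 6.56 to 6.90 in the others. None of the 7 measured genes of that list passed between cKO and WT, a test that does not address a single array. At their brightest probe sets 3 of these 7 genes reached the average array median. Cd207, which defines Langerhans cells, was dim on every array (4.50 to 4.78). The part of these cells in the ligand values was not tested.

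Epgn, Ereg, Areg and Btc lie side by side on chromosome 5 in the mouse reference, and their neighbours were read for comparison. The chemokine genes Cxcl1 and Cxcl2 and the folate enzyme gene Mthfd2l precede Epgn, and Parm1 and Rchy1 follow Btc. None of the 7 probe sets of genes in or beside this cluster other than the ligands passed (limma). The largest differences were 0.35 for Parm1 1424214_PM_at (SE 0.16, limma adjusted p = 0.665), 0.29 for its other probe set (SE 0.18, adjusted p = 0.793) and 0.31 for Cxcl1 (SE 0.17, adjusted p = 0.748). Cxcl2 differed by -0.26 (SE 0.15) and Mthfd2l by -0.16 (SE 0.09), in the opposite direction to Epgn. Rchy1 differed by 0.04 (SE 0.07), and the long non-coding RNA gene Gm19619, inside the cluster, by -0.10 (SE 0.06). Cxcl2, Mthfd2l and Gm19619 lay below the median of the array on each of the 8 arrays. Whether these dim probe sets hold signal is not known. At an unadjusted p under 0.05 there were none among these 7. None passed without cKO 2 and WT 4 either, with Cxcl2 at -0.47, Cxcl1 at 0.18, Mthfd2l at -0.04, Rchy1 at 0.11 and Parm1 at 0.40 and 0.45.

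The promoter windows of Epgn, the member with the smallest limma p, and of Tgfa, the member with the widest spread, are shown. They were chosen for these values, though neither gene passed. Each runs from 250 bases before to 50 after the transcript start in RefSeq (build GRCm38.p6), and 7 of the 10 genes had an entry: Egfr, Erbb2, Tgfa, Areg, Btc, Epgn and Egf. The 2 motifs searched, on both strands and at any position, were TGANTCA, with any base at N, and TATAAA, the letters of the TATA box. TGANTCA takes in the AP-1 element first known as the TPA response element but is wider than it. The motifs do not overlap each other here, and matches are in capitals. Epgn is on chromosome 5, plus strand, chr5:91027267-91027566, and Tgfa on chromosome 6, plus strand, chr6:86194972-86195271.
Epgn: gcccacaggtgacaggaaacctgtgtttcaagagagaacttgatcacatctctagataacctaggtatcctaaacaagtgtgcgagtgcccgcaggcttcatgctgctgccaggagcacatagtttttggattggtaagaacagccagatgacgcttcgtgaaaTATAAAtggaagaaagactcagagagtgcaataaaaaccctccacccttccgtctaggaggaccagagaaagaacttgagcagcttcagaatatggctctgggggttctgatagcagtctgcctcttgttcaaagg
Tgfa: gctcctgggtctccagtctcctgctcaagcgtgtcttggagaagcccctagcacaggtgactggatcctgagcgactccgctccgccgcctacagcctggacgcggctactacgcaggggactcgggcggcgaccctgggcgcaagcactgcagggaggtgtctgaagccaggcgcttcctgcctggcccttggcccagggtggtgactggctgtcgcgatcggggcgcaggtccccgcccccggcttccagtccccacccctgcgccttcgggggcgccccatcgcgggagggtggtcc

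The Epgn window holds TATAAA 86 bases before the start, and the Tgfa window holds neither motif. Of the 32851 windows of this length in the table, 13.6% hold TATAAA and 7.81% hold TGANTCA. Among the other members, TATAAA was found in the window of Areg, 31 bases before the start, and TGANTCA in none of the windows of these 7 genes. The Tgfa window is rich in G and C (70.7%), the Epgn window less so (47.3%), with a median of 52.7% over all windows. A match or its absence describes these letters alone.

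The rest of the pathway was read through 4 lists of 52 genes, of which 46 had a probe set. None of these 46 genes, with 106 probe sets, passed in either direction (limma), against 0.466% of all probe sets. At an unadjusted p under 0.05 there were 8 probe sets, or 7.55%, close to the 7.98% of the whole array. The groups did not overlap at 3 (2.83%, against 4.89%), 1 each of Adam17, Rhbdl2 and Plcg1. The median difference was -0.03, against 0.01 over all probe sets, and 39 of 106 values were above 0 (36.8%), against 53.0% of all. In the fit without cKO 2 and WT 4 there were 2 of the 106 probe sets past the threshold (1.89%), near the 1.46% of all probe sets in that fit, both higher in cKO: the adaptor gene Gab2 at 1419829_PM_a_at (0.56, SE 0.09, adjusted p = 0.0259) and Lrig3, of a family of ErbB-binding membrane proteins, at 1429368_PM_at (0.67, SE 0.11, adjusted p = 0.0330). With all 8 arrays they stood at 0.37 (SE 0.15, adjusted p = 0.545) and 0.11 (SE 0.35, adjusted p = 0.990). Lrig3 was dim at this probe set, read 6.04 in WT 4 and 4.43 to 5.39 in the others, and its brighter probe sets differed by 0.12 and 0.07. WT 4, the highest Lrig3 value, is 1 of the arrays left out in that fit, so the call comes with the omission. At the Gab2 probe set cKO 2 (4.81), also left out, lay within the WT range (4.76 to 5.02), so the same holds there. This Gab2 probe set lay below the median of the array on all 8 arrays. The brightest Gab2 probe set did not pass in that fit (0.20, limma adjusted p = 0.151).

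Among the remaining receptor and neuregulin genes, all 5 were measured and none passed. Nrg1, a ligand of ErbB3 and ErbB4, differed by -0.09 (SE 0.20) and Erbb4 by -0.08 (SE 0.06). Nrg3 and Nrg2 differed by 0.06 (SE 0.05) and -0.06 (SE 0.07) at their brightest probe sets. Nrg1 stood at -0.39 (adjusted p = 0.165) and Erbb4 at -0.15 (adjusted p = 0.283) without cKO 2 and WT 4. Erbb4 read 4.81 ± 0.10 in cKO and 4.89 ± 0.07 in WT (SD, n = 4 each), below the array medians. Both probe sets of Nrg3 also lay below the median of the array on each of the 8 arrays. It is not known whether Erbb4 and Nrg3 hold signal.

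Of the 8 measured genes that release or restrain the release of ligands, none passed. Rhbdl2, a rhomboid protease known to cut EGF precursors, came closest: it read 6.80 ± 0.17 in cKO and 7.13 ± 0.03 in WT (SD, n = 4 each) at 1442819_PM_at, a difference of -0.34 (SE 0.08, limma adjusted p = 0.161). All 4 cKO arrays lay below all 4 WT arrays there. At its other probe set the groups overlapped and the difference was -0.25 (SE 0.15, adjusted p = 0.774). The metalloprotease gene Adam17 differed by -0.06, -0.12 (adjusted p = 0.611) and -0.06 at its 3 probe sets and Adam10 by -0.08, -0.14 and -0.18. Timp3, an inhibitor of ADAM17, differed by 0.15 (SE 0.11) at its brightest probe set and by 0.11 to 0.14 at the other 3. Without cKO 2 and WT 4 the Adam10 probe sets stood at -0.15, -0.17 and -0.23 and those of Adam17 at -0.04, -0.09 and -0.04. The Timp3 values ran from 0.07 to 0.12 in that fit.

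Of 15 measured adaptor and effector genes and of 18 negative regulator and trafficking genes, none passed. Gab2, a docking protein, stood at 0.15 (SE 0.06, limma adjusted p = 0.549) at its brightest probe set. Sos1, a Ras exchange factor, stood at -0.17 (SE 0.08). It lay below the median of the array on each of the 8 arrays, so it is not known whether it holds signal. The kinase gene Map2k1 stood at -0.12 (SE 0.07) and the transcription factor gene Stat3 at -0.12 (SE 0.10) at its brightest probe set. Spry2, a feedback inhibitor of receptor tyrosine kinase signalling, read 8.79 ± 0.17 in cKO and 8.44 ± 0.13 in WT (SD, n = 4 each) at 1436584_PM_at, a difference of 0.35 (SE 0.09, adjusted p = 0.231), and 0.25 higher at its other probe set (SE 0.11, adjusted p = 0.627). Errfi1, the EGFR inhibitor also called Mig6, differed by -0.12 (SE 0.14), Socs4 by -0.15 (SE 0.07) and Socs5 by -0.11 (SE 0.11). Without cKO 2 and WT 4 Errfi1 stood at -0.29 (limma adjusted p = 0.284), Socs5 at -0.23 (adjusted p = 0.268) and Stat3 at -0.23 (adjusted p = 0.222). In that fit Spry2 stood at 0.28 (limma adjusted p = 0.246) at 1436584_PM_at and at 0.15 (adjusted p = 0.625) at its other probe set.

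**Figure D4:**
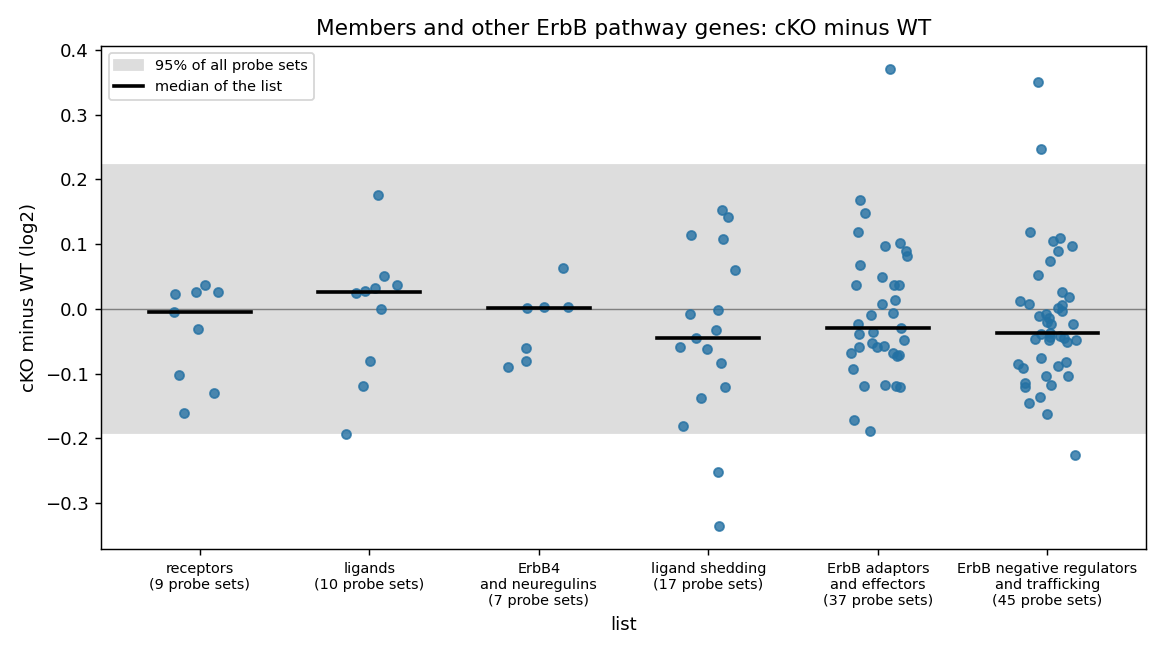
Difference between cKO and WT (log2) for each probe set of the receptors, the ligands and 4 lists of other pathway genes. Points are probe sets, black lines the list medians, and the grey band holds 95% of all probe sets (-0.19 to 0.22). Of the 19 members 1 lies just past the edge of the band, Tgfa 1421942_PM_s_at at -0.19, and 6 of 106 other pathway probe sets lie outside it.

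Likeness over the 8 arrays was computed for the brightest Egfr probe set and for the most variable ligand probe set, as a description with no test, since the genes were picked for it. Med13, a subunit of the Mediator complex, the thiamine transporter gene Slc19a2 and the tropomyosin gene Tpm1 were most like Tgfa 1421942_PM_s_at, with Pearson r of 0.998, 0.993 and 0.992. All 3 ordered the 8 arrays exactly as Tgfa did (Spearman rho 1.00), and r was 0.996, 0.991 and 0.989 without WT 4 and cKO 4, the arrays farthest from the median. The Tgfa probe set had r of at least 0.95 with 269 of the 45036 other probe sets and of at most -0.95 with 131. The Egfr probe set 1451530_PM_at, whose whole range was 0.083, had r of at most -0.95 with 10 probe sets. It reached 0.95 with 1 probe set, of the microtubule-binding protein gene Hook1 (r = 0.986, rho 0.976, and 0.977 without WT 2 and cKO 3). Cavin2 and Ltbp2 followed with r of 0.931 and 0.924 (rho 0.952 and 0.929), which became 0.874 and 0.776 without those arrays.

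Markers of 11 cell types that the tissue could hold were read beside these values, with 77 of 83 listed genes measured. Of these, 1 passed: the T cell list held Cd5, which rose by 0.70 in cKO (SE 0.08, limma adjusted p = 0.00539), while the other 6 measured genes of that list did not pass. The mean of the T cell list was 6.31 to 6.33 in cKO and 6.11 to 6.25 in WT. This mean includes Cd5, and the mean without Cd5 was not computed, so it adds nothing separate from the Cd5 value. Lists of endothelium, macrophages and monocytes, and muscle and fat held no gene whose brightest probe set reached the average array median. Hair follicle markers averaged 5.68 to 5.77 in cKO and 5.67 to 5.71 in WT, and fibroblast markers 5.46 to 5.61 and 5.47 to 5.55. Sebaceous gland markers were brighter, with averages of 8.47 to 8.66 in cKO and 8.53 to 8.64 in WT. The brightest probe sets of 5 of the 6 measured sebaceous gland genes reached the average array median. The part of such cells in the receptor and ligand values was not tested.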

How the data were processed

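Expression was measured on 1-colour oligonucleotide arrays in 4 cKO and 4 WT samples. RNA was extracted with TRIzol, and 25 ng were amplified with WTA2 in 17 cycles, per the labels' protocols. The deposited values are log2 expression per probe set. The submitters' processing notes name RMA, without the settings. The log base is inferred from the range, 3.06 to 13.0. RMA equalises the arrays' distributions, which would hide a change common to most genes.

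Of 45141 rows, 104 control probe sets were left out and 45037 were tested. Genes were named from the platform annotation, which pairs 28898 of these with 1 gene, 551 with several and leaves 15588 unnamed here; current symbols came from a RefSeq table (GRCm38.p6) for 28689. The 4 cKO and 4 WT arrays were compared by limma 3.58.1 in R 4.3.3 (functions lmFit and eBayes, two-sided), with Benjamini-Hochberg adjustment over all probe sets and a threshold of 0.05. Errors are SE from the fit. The labels do not say whether replicates are separate animals, so the p-values refer to the variation among these 8 samples, which may be technical, and the number of arrays limits the precision.

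The members and lists were chosen with earlier results of these data known. Named genes are all members, Ehmt2, up to 4 genes of each pathway list (past the threshold first, then by size at the brightest probe set), the neighbours of the ligand cluster, the 3 genes most like each of 2 probe sets; Lrig3, Plcg1 and Cd5 were named after their values were seen, as were Krt5, Krt14, Trp63 and Cd207 among the listed markers. The procedure was tested on simulated data. Alternatives were the replicate block, other normalisation and centring, a dim filter, a trended prior, array weights, 1 probe set per gene, a looser threshold and leaving out arrays. Plots used matplotlib 3.10.9.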

Additional observations from a re-analysis of the deposited data

Results flagged for a closer look

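Within a group of 4 arrays, a value was singled out when its gap to the nearest other value divided by the group's whole range, was above Dixon's 95% critical value. Of 42 such groups (19 member and 2 Ehmt2 probe sets in cKO and WT) 3 held one, and chance gives about 1 in 20. Egfr 1424932_PM_at read 8.32 in cKO 1, against 8.19 to 8.20 in the other cKO arrays. Egfr 1460420_PM_a_at read 9.79 in WT 3, against 9.70 to 9.71 in the other WT arrays. Btc 1435541_PM_at, a dim probe set, read 4.08 in cKO 1, against 3.96 to 3.97 in the other cKO arrays.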

How the results depend on the processing

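No member probe set passed the threshold under any of 17 alternatives; 5 of these leave the differences themselves as they were, and under the 12 that can move them 192 of 228 member differences kept their direction and 36 turned it. The lowest adjusted p was 0.0849 (Tgfa 1421942_PM_s_at without cKO 2 and WT 4). The cause of the turns was not tested; the largest difference that turned was that of Tgfa 1421943_PM_at (-0.12). Array weights gave -0.033 for Egfr 1454313_PM_at, -0.014 for Egfr 1460420_PM_a_at, 0.041 for Erbb2, -0.023 and -0.028 for Hbegf 1418349_PM_at and 1418350_PM_at and -0.00078 for Btc 1435541_PM_at. Without cKO 2 and WT 4 the values were -0.054 for Egfr 1454313_PM_at, -0.0016 for Egfr 1460420_PM_a_at, 0.052 for Erbb2, and -0.080 and -0.13 for the Hbegf pair. Leaving out 1 array gave -0.036 to 0.0070 for Egfr 1424932_PM_at, -0.032 to 0.063 for 1435888_PM_at, -0.031 to 0.071 for 1454313_PM_at, -0.00028 to 0.053 for 1460420_PM_a_at, -0.077 to 0.021 for Erbb2, -0.33 to 0.028 for Tgfa 1421943_PM_at, -0.049 to 0.10 and -0.078 to 0.10 for Hbegf 1418349_PM_at and 1418350_PM_at, -0.0047 to 0.037 for Btc 1435541_PM_at and -0.031 to 0.025 for Egf. Ehmt2 1426888_PM_at was -0.0044 with median centring and -0.030 to 0.045 with 1 array left out; Ehmt2 1460692_PM_at stayed past the threshold in all 16 settings that hold it. Of all probe sets, 132 passed in the upper 50% by mean, 758 with array weights, 657 without cKO 2 and WT 4, 343 at an adjusted p under 0.1, and 104 (without WT 1) to 356 (without WT 4) with 1 array left out, including 108 without cKO 3, 112 without WT 3 and 131 without cKO 2, against 210. Of the other pathway genes 2 passed without cKO 2 and WT 4 and none under the other alternatives. Same-numbered deviations from the group means correlated at 0.134, 0.221, -0.624 and 0.368, so the replicate numbers were not taken to pair the samples; with the replicate block 175 probe sets passed, and no call of a member, pathway or neighbouring gene changed. The filter left 15 member probe sets, without Ereg, Btc and Egf, and the setting with 1 probe set per gene left 9, so the others have no value there. No probe set was below a measured background, since none is given, so dim members are the least certain.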
